A study of Rattus norvegicus with 16 samples.

Results

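Livers of rats given TBD were set against livers of rats given oltipraz (OLT), 8 arrays of the 16 in the series. Both compounds carry the 1,2-dithiole-3-thione ring, from which the dithiolethiones take their name. At ring position 5, TBD has a tert-butyl group and OLT a pyrazinyl group, and OLT has a methyl group besides. The 4 TBD arrays and the 4 OLT arrays were chosen by their titles alone, and all 8740 probe sets of the deposited table were considered, of which 5323 were bright enough to test. They covered 3104 named genes.

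All animals were male Fischer F344 rats that arrived at 6 weeks of age weighing 80 to 100 g. The TBD and OLT groups received 0.3 mmol/kg by gavage every other day over 5 days, 3 doses in all, and the liver was collected 24 h later. A vehicle group of 4 rats, titled as untreated, received saturated sucrose on the same days and is shown as background. A further group of 4 rats given D3T, the same ring without side groups, was part of the fit, the filter on dim probe sets and the choice of probe set for a gene, and gave a set of responsive probe sets used to describe the precision. The animals were singly housed and randomly assigned. No scan date or other batch was given with the values.

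Dithiolethiones are known inducers of NRF2, a transcription factor that is released from its inhibitor KEAP1 by reactive compounds and turns on glutathione transferases, quinone reductase and other detoxifying enzymes. A separate sensor, the aryl hydrocarbon receptor (AhR), pairs with ARNT on DNA and turns on cytochromes P450 of the CYP1 family. The nuclear receptors CAR and PXR control the CYP2B and CYP3A families. OLT has been studied as a chemopreventive agent against aflatoxin, which the liver both activates through P450 enzymes and detoxifies through glutathione transferases.

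Cyp1a2, a liver P450 that oxidises caffeine, aromatic amines and aflatoxin and is a known AhR target, was lower in TBD livers than in OLT livers. It was the 1 gene of 3104 to pass the test, 0.0322% of genes tested. The test was limma's moderated comparison across the 5323 probe sets, two-sided, with the spread taken from all 16 arrays and Benjamini-Hochberg adjusted p under 0.05 over all probe sets tested. It called 3 probe sets, 0.0564% of those tested, all annotated to Cyp1a2 and all lower with TBD. By limma, 0 probe sets were called higher with TBD. At an unadjusted p under 0.05 there were 145 probe sets, 2.72% of those tested. For scale, the same fit called 693 probe sets in TBD against vehicle and 600 in OLT against vehicle, 2 comparisons that share the vehicle arrays. Without TBD replicate 4 the count for TBD against OLT was 6 probe sets, 1 higher and 5 lower.

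The 300 bases around the start of Cyp1a2 are shown because this gene carries the difference. They are from RefSeq on the GRCr8 assembly, minus strand of chr8:66978100-66978399, 250 bases before the start and 50 after, printed 5′ to 3′ along the gene. Capitals mark the TATAAA motif.
Cyp1a2: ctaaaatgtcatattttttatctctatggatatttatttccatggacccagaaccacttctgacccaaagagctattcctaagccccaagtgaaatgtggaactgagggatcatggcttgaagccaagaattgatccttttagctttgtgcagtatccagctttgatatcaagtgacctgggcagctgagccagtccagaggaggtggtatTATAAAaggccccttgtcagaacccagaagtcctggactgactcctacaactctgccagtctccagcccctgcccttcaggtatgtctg
Both strands were searched for TATAAA and for GCGTG, the core bound by AhR with ARNT. TATAAA occurred 1 time, on the gene's own strand, with its first base 39 bases before the start. It occurs in 14.2% of 33469 rat promoter windows of the same length. GCGTG was found 0 times in this window and occurs in 29.7% of the windows, which says only that these letters are not in these 300 bases.

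The brightest probe set of Cyp1a2, M26127_s_at, read 9.31, 9.36, 9.36 and 9.84 in the 4 TBD livers, against 12.11, 11.77, 12.29 and 11.80 in the 4 OLT livers and 11.65, 11.26, 11.37 and 10.65 in vehicle livers, all as log2 expression values. Every TBD liver lay below every OLT liver and below every vehicle liver, and every OLT liver lay above every vehicle liver. The means were 9.46 ± 0.25 with TBD and 12 ± 0.25 with OLT (SD, n = 4 each). TBD minus OLT was -2.53 ± 0.28 on the log2 scale (SE, 95% interval -3.13 to -1.93, limma adjusted p = 0.000728), so that the OLT level was 5.78-fold the TBD level.

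The probe set E01184cds_s_at of Cyp1a2 read 8.69, 8.32, 9.21 and 9.23 with TBD, against 12.53, 11.82, 12.28 and 12 with OLT and 10.93, 10.94, 10.65 and 10.62 with vehicle. Its difference was -3.29 ± 0.27 (limma adjusted p = 3.12e-05). The probe set K03241cds_s_at of Cyp1a2 read 7.10, 6.70, 7.62 and 8.43 with TBD, against 11.77, 10.92, 11.39 and 11.02 with OLT and 9.99, 10.17, 9.85 and 10.14 with vehicle. Its difference was -3.81 ± 0.47 (limma adjusted p = 0.00171). The 3 probe sets of Cyp1a2 placed TBD lowest, vehicle between and OLT highest, with no overlap among these groups. The D3T livers, which were not compared with TBD here, had means of 9.03, 8.62 and 6.80 at the Cyp1a2 probe sets M26127_s_at, E01184cds_s_at and K03241cds_s_at, beside TBD means of 9.46, 8.86 and 7.47. Across the other settings tried, the difference at M26127_s_at ran between -2.70 and -2.43, and its limma adjusted p stayed at or below 0.00536. The mean of the 3 probe sets gave -3.21. At K03241cds_s_at the difference reached -4.14 with array weights, and its limma adjusted p reached 0.0188 with the replicate number in the fit.

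**Figure D1:**
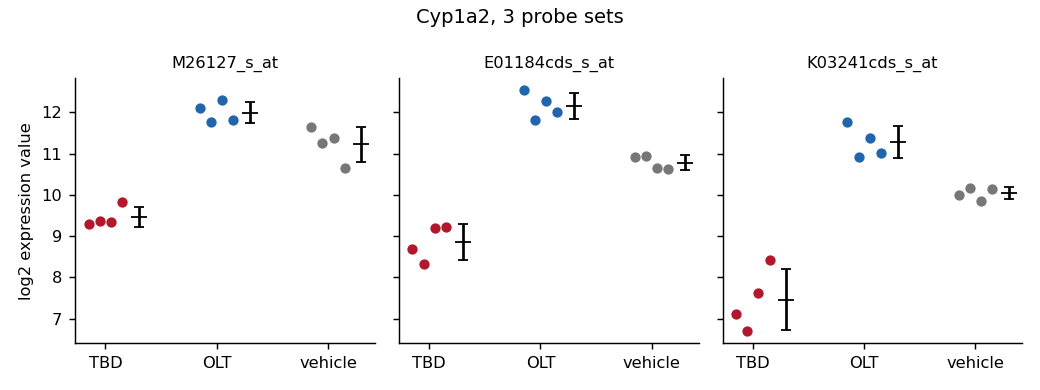
Log2 expression values (y axis) of the 3 Cyp1a2 probe sets in the TBD, OLT and vehicle groups (x axis). Points are single livers, and the black bar is the mean with its SD over 4 livers. The TBD livers lie between 6.70 and 9.84, and the OLT livers between 10.92 and 12.53.

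Set against vehicle, Cyp1a2 was lower with TBD, and higher with OLT by the 1 probe set that passed. With TBD it fell at all 3 probe sets: TBD minus vehicle was -1.76 ± 0.28 at M26127_s_at (limma adjusted p = 0.000969), -1.92 ± 0.27 at E01184cds_s_at (adjusted p = 0.000421) and -2.57 ± 0.47 at K03241cds_s_at (adjusted p = 0.00242). With OLT the values were 0.77 ± 0.28, 1.37 ± 0.27 and 1.24 ± 0.47 at the same Cyp1a2 probe sets, with adjusted p of 0.0997, 0.00473 and 0.113, so OLT passed the test at E01184cds_s_at alone.

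The other genes of the AhR list gave little more to compare. Cyp1a1, the classical AhR-induced P450, was too dim to test: it read 2.77, 2.78, 2.64 and 2.74 with TBD, against 3.89, 2.85, 2.82 and 2.58 with OLT and 2.93, 2.60, 2.81 and 2.75 with vehicle. OLT replicate 1 was the highest of these livers, and the other OLT livers lay at the level of the TBD and vehicle livers. Cyp1b1, a further CYP1 enzyme, differed by 0.07 (95% interval -0.16 to 0.30). Nfe2l2, the gene of NRF2, differed by -0.30 (limma unadjusted p = 0.35). Cyp1b1 and Nfe2l2 are named as the other tested members of the list. Of its 3 tested genes, 1 lay above and 2 below 0. Limma called 1 lower, Cyp1a2, and 0 higher, where 0.0322% of all genes were called lower. The median difference, -0.30 beside 0.01 over all genes tested, is the value of Nfe2l2 itself and does not describe the list.

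The intervals over all probe sets show how large a difference these arrays could have missed, where a probe set was bright enough to register it. Of those tested, 684 lay below the array median in every TBD and OLT liver. Differences of such dim probe sets are compressed, so a narrow interval there does not exclude a difference in RNA. The median 95% half-width of a difference was 0.29 on the log2 scale, and the interval lay within 2-fold either way for 4858 probe sets, 91.3% of those tested, and within 1.5-fold for 3791, or 71.2%. In D3T against vehicle, a comparison with no TBD or OLT array in it, 981 probe sets were called. Of these, 849 (86.5%) had a TBD minus OLT interval within 2-fold and 516 (52.6%) within 1.5-fold. In 12 of them TBD and OLT differed by 2-fold or more. Of the 403 called and changed by 2-fold or more with D3T, 276 (68.5%) had an interval within 2-fold and 76 (18.9%) within 1.5-fold. Those 981 probe sets share their estimate of the spread with the comparison. All intervals pool the spread of the 4 groups, so they come out too narrow where TBD and OLT livers spread more than the others. Among genes described below, Sds had an SD of 0.97 with TBD and 0.88 with OLT, against 0.28 with D3T and 0.16 with vehicle. Hspb1 had 0.41 and 0.94, against 0.055 and 0.15.

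**Figure D2:**
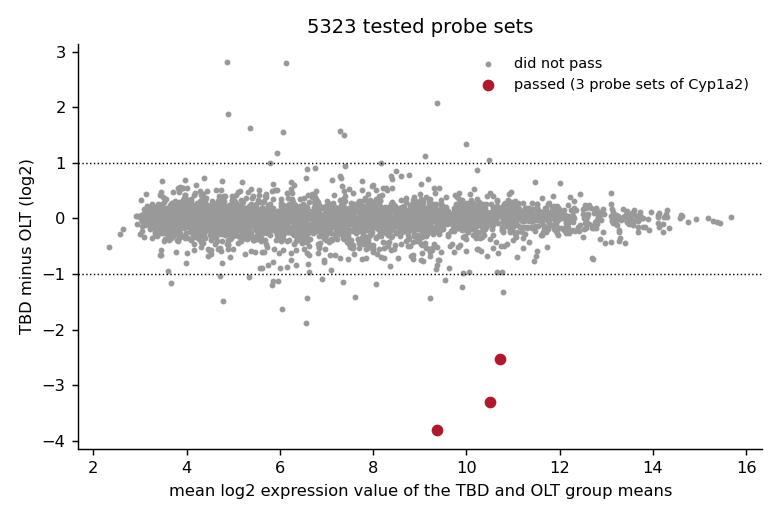
TBD minus OLT in log2 units (y axis) against the mean log2 expression value of the TBD and OLT groups (x axis), for the 5323 probe sets tested. Red points passed the test and are the 3 probe sets of Cyp1a2, at -2.53, -3.29 and -3.81. Dotted lines mark 2-fold.

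The NRF2 list held 28 tested genes, 13 above and 15 below a difference of 0, with 0 called by limma in either direction. At an unadjusted p under 0.05, 1 was higher with TBD and 2 were lower, where 1.22% of all genes were higher and 1.55% lower. The list median was -0.02, beside 0.01 over all genes. The widest difference was that of Gstp1, the pi-class glutathione transferase, which is low in normal rat liver. Gstp1 read 8.56, 10.69, 10.99 and 11.39 in TBD livers, against 9.36, 6.61, 8.92 and 8.43 in OLT livers and 6.33, 6.14, 6.04 and 6.02 in vehicle livers. TBD replicates 2, 3 and 4 lay above every OLT liver, and TBD replicate 1 did not. The difference of Gstp1 was 2.08 (95% interval 0.82 to 3.33) and did not pass the test (limma adjusted p = 1.00). Its second probe set, X02904cds_s_at, read 2.52, 6.65, 7.60 and 8.33 with TBD, against 5.43, 1.90, 2.32 and 4.23 with OLT and 1.87, 1.99, 1.87 and 2.10 with vehicle. TBD replicate 1 and OLT replicates 2 and 3 lay near the vehicle level of Gstp1 there, and no size is given for its difference.

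Nqo1, the NAD(P)H quinone reductase used as an NRF2 readout, read 4.53, 7.56, 6.90 and 8.79 with TBD, against 7.53, 5.19, 7.03 and 6.36 with OLT and 4.77, 4.30, 4.39 and 4.02 with vehicle. All OLT livers lay within the TBD range for Nqo1, and the difference was 0.42 (95% interval -1.06 to 1.89). That interval holds more than 2-fold in either direction. Gsta3, an alpha-class glutathione transferase that conjugates the aflatoxin epoxide, read 9.66, 11.02, 10.82 and 11.46 with TBD, against 11.47, 9.08, 9.80 and 10.79 with OLT and 3.31, 2.98, 3.25 and 3.27 with vehicle. Every TBD and OLT liver lay above every vehicle liver for Gsta3, and the difference between the compounds was 0.46 (95% interval -0.50 to 1.41).

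Akr7a3, the aflatoxin aldehyde reductase, read 11.47, 12.01, 12.43 and 12.20 with TBD, against 12.76, 11.01, 12.65 and 12.35 with OLT and 8.37, 8.48, 8.43 and 8.56 with vehicle. The difference of Akr7a3 was -0.16 (95% interval -0.84 to 0.52). Ephx1, microsomal epoxide hydrolase, differed by -0.03 (95% interval -0.43 to 0.36), and Gstm1, a mu-class glutathione transferase singled out after its values were seen, by -0.01 (95% interval -0.26 to 0.23). For Ephx1 and Gstm1 the intervals exclude a 2-fold difference between the compounds. The interval of Akr7a3 also lies within 2-fold, but it pools unequal spreads and may be too narrow. The SD of Akr7a3 was 0.41 with TBD and 0.81 with OLT, against 0.34 with D3T and 0.079 with vehicle. Of the subunits of glutamate cysteine ligase, which makes the first bond of glutathione and was also singled out afterwards, Gclc differed by -0.53 (95% interval -1.66 to 0.60) and Gclm by -0.59 (95% interval -1.23 to 0.04). The glutathione transferase list had 15 tested genes, 10 above and 5 below 0, with a median of 0.10 and 0 called by limma. At an unadjusted p under 0.05, 1 was higher and 0 lower, where 1.22% of all genes were higher and 1.55% lower.

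**Figure D3:**
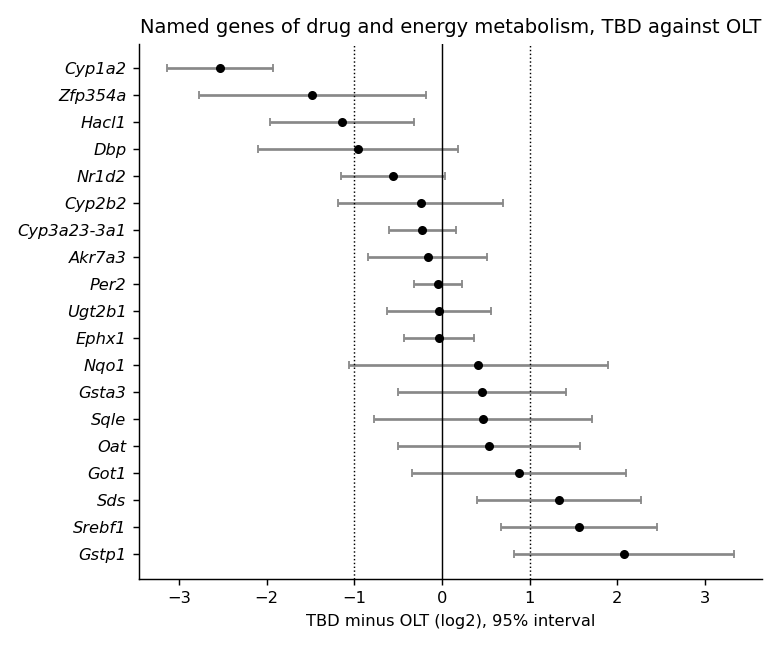
TBD minus OLT in log2 units (x axis) with 95% intervals for the named genes of drug and energy metabolism (y axis), from 4 livers a group. The interval of Cyp1a2 lies wholly past 2-fold (dotted lines), and that of Nqo1, from -1.06 to 1.89, reaches past it on both sides.

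The CAR and PXR list held 17 tested genes, 5 above and 12 below 0, with a median of -0.14 and 0 called by limma. At an unadjusted p under 0.05, 1 was higher and 4 lower with TBD, where 1.22% of all genes were higher and 1.55% lower. Cyp2b2, the phenobarbital-inducible P450 controlled by CAR, read 11.77, 11.91, 11.38 and 13.24 with TBD, against 13.45, 11.07, 12.70 and 12.06 with OLT and 9.57, 10.32, 10.00 and 9.91 with vehicle. TBD replicate 4 and OLT replicate 1 stood highest in their groups, and the difference of Cyp2b2 was -0.24 (95% interval -1.18 to 0.70). A second probe set of Cyp2b2 gave 0.04, and the CYP2B genes are so alike that these probes may read more than 1 of them. Cyp3a23-3a1, the P450 controlled by PXR, differed by -0.22 (95% interval -0.60 to 0.16), and Ugt2b1, a glucuronosyltransferase, by -0.03 (95% interval -0.63 to 0.56). For both the interval excludes 2-fold. The other tested probe sets of Cyp3a23-3a1 differed by -0.26, -0.07 and 0.01.

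Sult2a1, a hydroxysteroid sulfotransferase, read 9.01, 9.07, 8.83 and 10.85 with TBD, against 10.50, 10.17, 10.63 and 10.37 with OLT and 12.01, 11.93, 11.50 and 12.04 with vehicle. The first 3 TBD livers lay below all OLT livers, and TBD replicate 4 lay above them. The difference of Sult2a1 was -0.98 (95% interval -1.80 to -0.16) and did not pass. Its other tested probe sets differed by -1.44, -0.89 and 0.01, and its family probes may read other Sult2a genes. The list of glucuronosyltransferases and sulfotransferases had 13 tested genes, 4 above and 9 below 0, with a median of -0.18 and 0 called by limma, of which 2 were lower at an unadjusted p under 0.05. Bile acid synthesis and transport had 19 tested genes, 2 above and 17 below 0, with a median of -0.19 and 0 called by limma. At an unadjusted p under 0.05, 4 were lower and 0 higher, where 1.55% of all genes were lower, and 41.0% of all genes lay below 0. Among the lower ones was Nr1h4, the bile acid receptor FXR, at -0.29 (95% interval -0.47 to -0.10), singled out after its values were seen. The transporter genes Slco1a4 and Abcc2 were among the lower ones here and again in the CAR and PXR list. Sult2a1 was also among the lower genes of the CAR and PXR list. Lists in this text share members, so their counts are not separate results. Cyp7a1, which catalyses the first step from cholesterol to bile acids, differed by -0.75 (95% interval -2.11 to 0.61).

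The PPAR-alpha and fatty acid oxidation list had 28 tested genes, 7 above and 21 below 0, with a median of -0.23 beside 0.01 over all genes, where 41.0% of genes lay below 0. By limma 0 were called. At an unadjusted p under 0.05, 7 were lower and 1 higher, where 1.55% of all genes were lower and 1.22% higher. Hacl1, a peroxisomal lyase of fatty acid alpha-oxidation, read 7.06, 7.08, 6.60 and 6.42 with TBD, against 8.61, 7.58, 8.47 and 7.07 with OLT and 8.65, 10.30, 9.88 and 9.64 with vehicle, a difference of -1.14 (95% interval -1.96 to -0.32). Hacl1 in OLT replicate 4 lay within the TBD range and the other OLT livers lay above it. Eci1, an enoyl-CoA isomerase of mitochondrial beta-oxidation that was singled out after its values were seen, read 10.26, 10.31, 9.98 and 10.61 with TBD, against 11.61, 10.92, 11.60 and 10.90 with OLT and 10.81, 11.62, 11.31 and 11.27 with vehicle. The TBD and OLT livers of Eci1 did not overlap, and the difference was -0.97 (95% interval -1.51 to -0.42, limma adjusted p = 0.817). Crot, Ech1 and Cyp4a1, also singled out afterwards, differed by -1.05, -0.91 and -0.74 and did not pass.

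Amino acid catabolism had 33 tested genes, 28 above and 5 below 0, with a median of 0.20 and 0 called by limma; 8 were higher and 0 lower at an unadjusted p under 0.05, where 1.22% of all genes were higher and 1.55% lower and 41.0% lay below 0. Sds, serine dehydratase, read 11.17, 10.72, 11.50 and 9.30 with TBD, against 9.17, 10.02, 9.99 and 8.15 with OLT and 11.31, 11.64, 11.66 and 11.57 with vehicle. TBD replicate 4 lay among the OLT livers and the other TBD livers lay above all of them. The difference of Sds was 1.34 (95% interval 0.40 to 2.28), and its other probe sets differed by 1.89 and 1.62; none passed, and the 1.62 probe set passed without TBD replicate 4, at 2.20 (limma adjusted p = 0.0425). The transaminases Got1 and Oat differed by 0.88 (95% interval -0.34 to 2.10) and 0.54 (95% interval -0.51 to 1.58). All 5 tested genes of the urea cycle lay above 0, with a median of 0.20 and 0 called by limma, of which 1 was higher at an unadjusted p under 0.05. That 1 was Ass1, argininosuccinate synthase, at 0.43 (95% interval 0.12 to 0.75).

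Pck1, the gatekeeper of gluconeogenesis, read 11.19, 11.17, 11.04 and 11.45 with TBD, against 12.07, 11.93, 11.53 and 11.70 with OLT and 12.26, 11.99, 12.31 and 12.24 with vehicle. The TBD and OLT livers of Pck1 did not overlap, and its difference was -0.59 (95% interval -0.86 to -0.33, limma adjusted p = 0.325), short of the threshold. Of all tested genes, 30 had TBD and OLT livers that did not overlap, 0.966% of genes (1.05% of probe sets), 9 higher and 21 lower with TBD. Gluconeogenesis as a list had 14 tested genes, 8 above and 6 below 0, with a median of 0.05 and 0 called by limma. At an unadjusted p under 0.05, 1 was higher and 1 lower, where 1.22% of all genes were higher and 1.55% lower.

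Srebf1, the transcription factor SREBP-1 that drives lipogenesis, read 7.10, 7.08, 7.0 and 6.24 with TBD, against 5.20, 5.67, 4.12 and 6.19 with OLT and 4.31, 3.36, 3.56 and 4.45 with vehicle. Its TBD livers lay above all OLT livers, by little in TBD replicate 4. The difference of Srebf1 was 1.56 (95% interval 0.67 to 2.45) and did not pass (limma adjusted p = 0.817). The lipogenesis list had 10 tested genes, 8 above and 2 below 0, with a median of 0.33 and 0 called by limma. At an unadjusted p under 0.05, 1 was higher and 0 lower, where 1.22% of all genes were higher and 1.55% lower. Pnpla3, a lipid droplet protein controlled by SREBP-1, read 8.77, 7.71, 10.30 and 3.37 with TBD, against 3.28, 4.14, 3.49 and 8.06 with OLT and 5.24, 3.29, 3.51 and 4.52 with vehicle. One liver in each compound group went against its fellows, and the difference of Pnpla3 was 2.80 (95% interval -0.07 to 5.66). Cholesterol synthesis had 13 tested genes, 11 above and 2 below 0, with a median of 0.09, 0 called by limma and 0 at an unadjusted p under 0.05. Sqle, squalene epoxidase, read 2.90, 2.95, 3.00 and 5.90 with TBD, against 3.69, 3.05, 3.02 and 3.12 with OLT and 6.16, 8.10, 5.97 and 6.91 with vehicle. TBD replicate 4 alone stood well above the OLT livers, and without it the difference of Sqle turned to -0.27 against 0.47 with all livers. Sqle lay below the array median in 3 TBD and 3 OLT livers, so neither value is a reliable size.

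Lists of the cell's basic machinery had narrow spreads. Cytosolic ribosomal proteins (37 tested, 30 above 0) had a median of 0.12, the mitochondrial respiratory chain (39 tested, 30 above 0) 0.08, and proteasome subunits (26 tested, 8 above 0) -0.04, with 0 called by limma in each; at an unadjusted p under 0.05 the first and second had 1 higher each and the proteasome 0. Acute phase and secreted plasma proteins (37 tested, 27 above 0) had a median of 0.05, with 0 called and 1 higher at an unadjusted p under 0.05. Over all genes, 1.22% were higher and 1.55% lower at that p. The clock list (7 tested) had a median of -0.05, with 0 called and 0 at an unadjusted p under 0.05. In it Per2, a core clock repressor, differed by -0.05, and Dbp, a clock-driven transcription factor, by -0.96 (95% interval -2.10 to 0.18). Dbp read 6.84, 6.49, 6.70 and 4.60 with TBD, against 8.56, 6.41, 6.23 and 7.26 with OLT and 8.36, 8.18, 8.36 and 9.30 with vehicle. TBD replicate 4 was the lowest and OLT replicate 1 the highest of the compound livers, and without both the difference of Dbp was 0.043. Zfp354a, a zinc finger protein known from kidney and liver, read 4.19, 4.23, 4.30 and 3.41 with TBD, against 7.57, 4.16, 5.89 and 4.42 with OLT and 8.63, 9.41, 8.96 and 9.33 with vehicle, a difference of -1.48 (95% interval -2.78 to -0.18) that did not pass. OLT replicates 1, 3 and 4 lay above every TBD liver, and OLT replicate 2 lay within the TBD range. Hspb1, a small heat shock protein, differed by -1.03 (95% interval -1.76 to -0.30), and passed without OLT replicate 3, at -1.46 (limma adjusted p = 0.0199).

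The glucocorticoid response list had 11 tested genes, 8 above and 3 below 0, with a median of 0.28 and 0 called by limma; 3 were higher and 1 lower at an unadjusted p under 0.05, where 1.22% of all genes were higher and 1.55% lower. Sds and Pck1 are among them. Growth hormone regulated and sexually dimorphic liver genes numbered 23 tested, 9 above and 14 below 0, with a median of -0.08, 0 called, and 1 higher and 3 lower at an unadjusted p under 0.05. Receptors and transcription factors of the hepatocyte numbered 22 tested, 13 above and 9 below 0, with a median of 0.01, 0 called, and 1 higher and 2 lower at an unadjusted p under 0.05. Zfp354a and Nr1h4 were those 2 lower ones.

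The widest members of the remaining lists were these, none past the test. A2m, a protease inhibitor of the acute phase in rats, read 5.84, 5.09, 5.70 and 9.46 with TBD, against 5.26, 5.46, 5.21 and 5.48 with OLT. TBD replicate 4 alone was high, and the difference of A2m was 1.17 (95% interval -0.26 to 2.60), or 0.19 without that liver. The other tested probe sets of A2m differed by -0.025 and 0.13. Insig1, which retains SREBP in the endoplasmic reticulum, differed by 0.53. Tfrc, the transferrin receptor, differed by 0.65, Id2, an inhibitor of helix-loop-helix factors, by 0.55, and Igf1, the growth hormone responsive growth factor, by -0.54. Stmn1, a microtubule regulator of dividing cells, differed by -0.60. Rpl36 of the ribosome differed by 0.32, Ndufa9 of respiratory complex I by 0.52 and Psmb9 of the immunoproteasome by 0.50. Nr1d2, a clock repressor named by rule, differed by -0.56.

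In whole liver, fewer cells of a type and less RNA per cell cannot be told apart. The 11 tested hepatocyte markers had a median difference of 0.05, and their mean level ran from 13.15 to 13.34 with TBD, from 13.05 to 13.28 with OLT and from 13.35 to 13.57 with vehicle, in log2 units. The 8 markers of Kupffer cells and macrophages ran from 6.53 to 6.97 with TBD and from 6.59 to 7.09 with OLT, and the 5 of sinusoidal endothelial cells from 4.91 to 5.60 with TBD and from 5.25 to 5.96 with OLT. These marker ranges overlap between the compounds, and of these 3 lists none had a called gene. At an unadjusted p under 0.05 the hepatocyte list had 1 higher and 1 lower, the Kupffer list 1 lower and the endothelial list 0. Those of the hepatocyte list were Ass1 and Pck1, already counted in other lists above. Over all genes, 1.22% were higher and 1.55% lower at that p. The widest differences among cell type markers were -1.17 for Cd14 of macrophages, -0.45 for Lyve1 of endothelium, -0.70 for Reln of stellate cells, 0.30 for RT1-Da of antigen presentation, 0.38 for Onecut1 of cholangiocytes, 0.51 for Cd79b of B cells, 0.33 for Hbb-b1 of red blood cells and -0.14 for Myl9 of smooth muscle, none past the test. TBD replicate 3 alone was low for Cd14, at 5.18 where the other TBD livers read 7.97, 8.01 and 8.74. Without that liver the difference of Cd14 was -0.40, and its second probe set gave -0.27. Of the 8 macrophage markers, 4 lay above and 4 below 0. Of the 5 endothelial markers, 2 lay below the array median in all 8 TBD and OLT livers. The part of these cells in the Cyp1a2 difference was not tested.

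Correlations among livers of one compound covered about the same range as correlations between livers of different compounds. Pearson correlations over probe sets ran from 0.974 to 0.989 among TBD livers, from 0.979 to 0.991 among OLT livers and from 0.976 to 0.993 between them. The first principal component of the 8 arrays took 36.2% of the variance and set TBD replicate 4 (25.0) and OLT replicate 1 (21.9) apart from the other 6, which ran from -18.0 to 2.86. The lowest scores in each group were those of TBD replicate 1 (-18.0) and OLT replicate 2 (-14.9). Without TBD replicate 4 and OLT replicate 1 together, 3 probe sets were called and all were Cyp1a2.

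The genes with the heaviest weight on that component, read off after the component was seen, were led by Kctd13, Acsm2, Pnpla3 and Fasn and also held Fabp5, Scd, Nqo1, Cox6c, Anp32a and Pklr. Fasn, fatty acid synthase, read 10.92, 10.62, 11.40 and 5.77 with TBD, against 7.50, 8.95, 7.68 and 10.10 with OLT. Scd, stearoyl-CoA desaturase, read 14.08, 13.88, 14.41 and 10.98 with TBD, against 11.47, 13.51, 13.05 and 13.46 with OLT. TBD replicate 4 and OLT replicate 1 were the lowest of their groups for Fasn and Scd, and the differences were 1.12 (95% interval -1.06 to 3.30) for Fasn and 0.46 (95% interval -0.84 to 1.77) for Scd. Nqo1, Gsta3, Gstp1 and Ugt2b1, set beside them after their values were seen, ran the other way: each was highest in TBD replicate 4 and lowest in TBD replicate 1, and highest in OLT replicate 1 and lowest in OLT replicate 2. Akr7a3 and Ephx1 had the same highest and lowest OLT livers and the same lowest TBD liver. Their highest TBD liver was replicate 3 (12.43 and 13.24), with 12.20 and 12.77 in TBD replicate 4. Among OLT livers Cyp1a2 was highest in replicate 1 and lowest in replicate 2 at E01184cds_s_at and K03241cds_s_at, and highest in replicate 3 (12.29) and lowest in replicate 2 at M26127_s_at. Among TBD livers Cyp1a2 was highest in replicate 4 at all 3 probe sets.

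**Figure D4:**
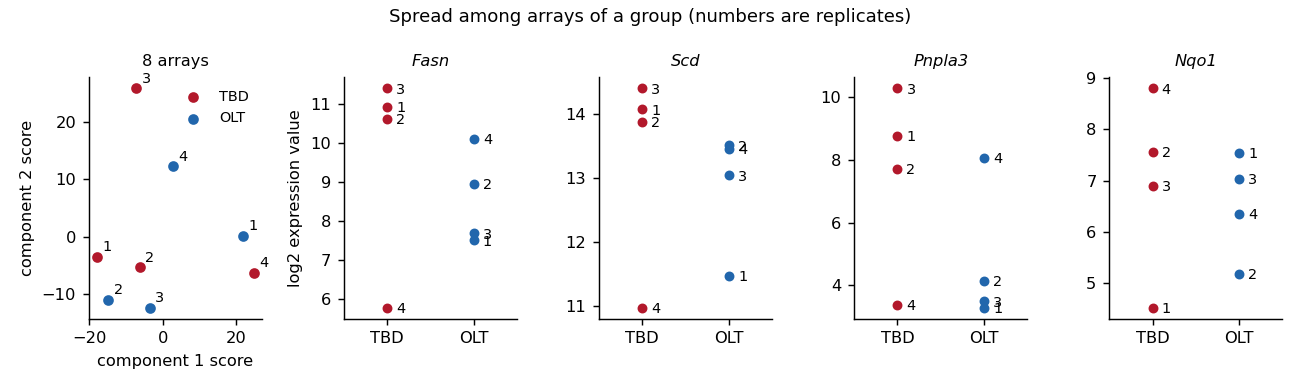
Left, scores of the 4 TBD and 4 OLT arrays on the first and second principal components (arbitrary units), with TBD replicate 4 and OLT replicate 1 at the right. The other panels give log2 expression values (y axis) of Fasn, Scd, Pnpla3 and Nqo1 by group (x axis), numbered by replicate; for Fasn the TBD livers run from 5.77 to 11.40 and the OLT livers from 7.50 to 10.10.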

How the data were processed

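Liver RNA was read on 1-colour arrays with biotin label, 1 array a rat. The values, deposited by the authors on a log2 scale, cover 8740 probe sets on 16 arrays. The submitters' processing notes name GCRMA, without a version. GCRMA subtracts a sequence-based background, so dim probe sets sit on a floor and their differences are compressed. Values ran from -1.21 to 15.9, and array medians from 3.27 to 3.58. Depth does not apply, and the number of arrays limits the precision.

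Of the probe sets, 7006 had 1 gene symbol, 308 several and 1426 none in the platform annotation; 6985 symbols were renewed by Entrez number. A probe set was tested if at least 4 of 16 arrays held it above their own 40th percentile. limma 3.58.1 in R 4.3.3 fitted the 4 group means with eBayes, and p-values, two-sided, were Benjamini-Hochberg adjusted over 5323 probe sets. Each p measures the spread between single animals. TBD against OLT was the 1 pair of compounds compared. Of several tested probe sets, the one brightest on average over 16 arrays stands for the gene. The text names genes past the threshold, a set of 21 genes fixed by name, and the member with the widest difference of each list with none past it; other genes were chosen after their values were seen, apart from the remaining AhR list members. Members and lists were chosen with earlier results of these data known. The fit was tested on simulated data with independent noise of equal spread in the 4 groups. The livers did not always meet that, so the simulation checks the code and not the results. Figures were drawn with matplotlib 3.10.9. Alternatives are given at the end.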

Additional observations from a re-analysis of the deposited data

Results flagged for a closer look

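In the 43 genes named by rule, 86 groups of 4 livers were checked for a liver far from the other 3, and 8 were found. The check flags about 1 in 20 independent groups by chance. These groups share arrays, and some genes were named for a wide difference, so the 8 cannot be set against that rate. Of the 8 found, 6 were TBD replicate 4. That liver read 9.84 for Cyp1a2, where the other TBD livers lay from 9.31 to 9.36. It read 6.24 for Srebf1 (others 7.0 to 7.10), 5.90 for Sqle (2.90 to 3.00), 4.60 for Dbp (6.49 to 6.84), 3.41 for Zfp354a (4.19 to 4.30) and 10.9 for Sult2a1 (8.83 to 9.07). OLT replicate 1 read 3.69 for Sqle, where the other OLT livers lay from 3.02 to 3.12, below their array medians. TBD replicate 2 read 5.87 for Cd79b, a B cell marker, where the other TBD livers lay from 4.57 to 4.79.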

How the results depend on the processing

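Cyp1a2 passed under every alternative run, with 3 probe sets called under the other filters on dim probe sets, both variance priors, the 8 arrays alone, both rescalings, the percentile covariate, the floor, array weights (whose estimation stopped before it converged) and the stricter thresholds. With the replicate number as a block, 3 probe sets were called; same-numbered livers did not deviate together (r of -0.52, 0.18, -0.24 and -0.10), so the numbers give no pairing. Leaving out 1 liver gave 3 to 6 probe sets, 0 to 1 higher and 3 to 5 lower, and 1 to 2 genes. Without TBD replicate 4, Sds and Sult2a6 passed at 1 probe set each, and so did M31363mRNA_f_at (-1.49), which has no single gene symbol. Hsd17b2 (-1.64) passed without TBD replicate 2, Dhx36 (-0.81) without OLT replicate 2 and Hspb1 (-1.46) without OLT replicate 3. With all livers Hsd17b2 differed by -1.32 (95% interval -2.00 to -0.64, limma adjusted p = 0.671), and its TBD and OLT livers did not overlap. None of the differences that changed sign had passed the test; with all livers the larger were Dbp (-0.96), Insig1 (0.53), Sqle (0.47) and Nqo1 (0.42). The cause was not tested. With 1 liver left out, the signs turned for Cyp2b2 (-0.66 to 0.13), Ugt2b1 (-0.18 to 0.12), Nqo1 (-0.20 to 1.22), Akr7a3 (-0.56 to 0.026), Ephx1 (-0.17 to 0.14), Sqle (-0.27 to 0.73), Insig1 (-0.061 to 0.98) and S100a8 (-0.050 to 0.075). With TBD replicate 4 and OLT replicate 1 both left out, Ephx1 was 0.074, Sqle -0.11, Dbp 0.043, Per2 0.0067 and S100a8 -0.026. Array weights gave 0.020 for Ephx1 and -0.024 for S100a8, a neutrophil gene at 0.0045, which read -0.0048, -0.0093 and -0.0085 after quantile normalization, median centring and the percentile covariate. No scaling moved the median of all genes by 0.1.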
